A study of Homo sapiens with 24 samples.

Results

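The TRiC chaperonin, also called CCT, is a protein folding machine of the cytosol, and its subunits are encoded by 8 genes: TCP1, CCT2, CCT3, CCT4, CCT5, CCT6A, CCT7 and CCT8. These genes were taken from the deposited tables by their gene identifiers, and all 8 were found among the 25343 genes listed. Their RNA was followed in cancer cells that keep or lack PTDSS2, with or without an inhibitor of PTDSS1. PTDSS1 and PTDSS2 are the enzymes that make the membrane lipid phosphatidylserine, and the series asked how cells without PTDSS2 respond when PTDSS1 is blocked.

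TRiC is a pair of stacked rings, each holding a copy of every subunit, and it closes over unfolded proteins in a cycle driven by ATP. Actin and tubulin are its best known clients, and it also folds proteins with WD40 repeats, among them CDC20. Its subunits are named alpha to theta: TCP1 is alpha, CCT2 beta, CCT3 gamma, CCT4 delta, CCT5 epsilon, CCT6A zeta, CCT7 eta and CCT8 theta. In yeast, where the ring was studied in detail, TCP1, CCT4, CCT2 and CCT5 lie next to each other on the side that binds ATP more tightly, and CCT7, CCT8, CCT6A and CCT3 form the other side. Proliferating and transformed cells are known for high levels of TRiC.

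A375, a melanoma line, and HCT116, a colon cancer line, were each studied as a PTDSS2 knockout clone and as the parent line with wild-type PTDSS2. Cells were kept for 24 h with the PTDSS1 inhibitor DS07551382 at 0.1 µM or with its solvent DMSO. The 8 groups therefore were the knockout with inhibitor, the knockout with DMSO, the parent with inhibitor and the parent with DMSO, in A375 and in HCT116. Each group had 3 libraries, 24 in all. Each line is represented by 1 knockout clone, so that the loss of PTDSS2 and any other feature of the clone cannot be told apart. The labels do not say that the libraries of a group came from separate cultures, so the p-values below rest on the spread among these libraries alone, and that spread may be technical.

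Library totals ran from 6211629 to 11688267 expected counts. PTDSS2 RNA averaged 0.727 ± 0.123 TPM, a unit scaled for length and library size, in A375 knockout cells with DMSO, against 19.7 ± 0.895 TPM in A375 parent cells with DMSO (SD, n = 3 each). In HCT116 the values were 5.48 ± 1.05 TPM in knockout cells and 30.1 ± 2.26 TPM in parent cells. A375 parent cells expressed the melanocyte lineage genes SOX10 (288 TPM), ERBB3 (126 TPM), S100B (48.1 TPM), MITF (13.6 TPM) and PAX3 (10.8 TPM). The pigment cell genes PMEL (0.29 TPM), MLANA (0.45 TPM) and TYR (listed at 0 TPM) were at or near 0. HCT116 parent cells expressed the epithelial genes EPCAM (360 TPM), KRT8 (2352 TPM) and CDX2 (15.0 TPM), while the intestinal differentiation genes KRT20 (0.807 TPM), VIL1 (0.027 TPM) and CDH17 (listed at 0 TPM) were at or near 0.

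RefSeq start sites (build GRCh38.p14) gave 9 promoter windows for 7 of the 8 subunit genes, each 300 bases long and reaching from 250 bases before to 50 bases after the start. CCT6A had no window in the table used. The 250 bases before the start are shown for the 3 genes that have a stretch holding no annotated gene. These genes mark the range of the results below. CCT2 fell strongly in both knockout clones, CCT7 fell least in A375, and CCT8 differed most between the lines. The stretches are chr12:69585209-69585458 on the plus strand for CCT2, chr2:73234058-73234307 on the plus strand for CCT7 and chr21:29073649-29073898 on the minus strand for CCT8. Capitals mark matches, on either strand, to CCAAT (the CCAAT box), GGGCGG (the GC box) and CCGGAAG (the ETS core).
CCT2: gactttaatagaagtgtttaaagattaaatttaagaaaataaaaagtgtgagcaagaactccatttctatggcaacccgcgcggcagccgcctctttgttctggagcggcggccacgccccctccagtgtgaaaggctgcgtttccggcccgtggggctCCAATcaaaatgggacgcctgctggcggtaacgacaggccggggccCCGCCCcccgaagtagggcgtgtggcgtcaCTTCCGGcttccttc
CCT7: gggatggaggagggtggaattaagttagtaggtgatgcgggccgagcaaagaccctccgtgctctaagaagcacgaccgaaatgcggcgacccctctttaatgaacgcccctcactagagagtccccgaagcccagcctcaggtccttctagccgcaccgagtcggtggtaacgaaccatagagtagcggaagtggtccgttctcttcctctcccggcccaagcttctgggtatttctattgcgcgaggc
CCT8: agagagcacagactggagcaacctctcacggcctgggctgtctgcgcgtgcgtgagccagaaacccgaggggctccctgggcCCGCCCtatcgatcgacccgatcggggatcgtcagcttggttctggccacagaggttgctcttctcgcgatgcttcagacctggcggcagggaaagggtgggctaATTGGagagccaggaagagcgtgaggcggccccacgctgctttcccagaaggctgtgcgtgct

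The full windows were searched, on both strands, for 7 motifs given by their letters. CCAAT was found in 4 of the 9 windows (of TCP1, CCT2, CCT3 and CCT8) and in 34.6% of all 35116 RefSeq windows. GGGCGG was found in 6 of the 9 (of TCP1, CCT2, CCT3, CCT7 and CCT8) and in 45.0% of all windows. CCGGAAG was found in 1 of the 9, of CCT2, and in 10.3% of all windows. The heat shock element core was searched as GAANNTTC, found in 2 of the 9 windows (of TCP1 and CCT2) and in 6.8% of all windows, and as TTCNNGAA, found in 1 of the 9 (of CCT4) and in 7.7% of all windows. The TCP1 match, GAAGGTTC, began at position -231 from the start, in a stretch that reaches into the neighbouring gene MRPL18. The CCT2 match, GAAATTTC, began at position -89 from a second annotated start, inside the CCT2 gene, and the CCT4 match, TTCTGGAA, began at position 39 after a start. The E-box CACGTG and the CHOP and ATF4 composite site TGATGNAA were found in 0 of the 9 windows, against 7.3% and 3.6% of all windows. The motifs do not overlap one another in the stretches shown, and a match is a description of the letters alone.

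All 8 subunits were abundant RNAs in both lines. In parent cells with DMSO they ranked, by mean TPM, between 169 (CCT3) and 395 (CCT8) of the 25343 genes in A375, and between 139 (CCT3) and 335 (CCT5) in HCT116. Their summed level was 4475 ± 30.9 TPM in A375 and 5429 ± 86.5 TPM in HCT116 (SD, n = 3 each). TPM is scaled per length, so levels of different subunits can be set beside each other.

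The order of the subunits differed between the lines. CCT3 was the highest of the 8 in every library of both lines. In A375 parent cells with DMSO CCT3 stood at 769 ± 8.04 TPM, followed by CCT2 at 696 ± 2.28 TPM and CCT7 at 688 ± 8.39 TPM, whose libraries overlapped. Below them, in libraries that did not overlap from one to the next, came CCT6A at 585 ± 7.41 TPM and CCT5 at 531 ± 8.43 TPM. CCT4 at 438 ± 9.77 TPM and TCP1 at 410 ± 18.9 TPM did not overlap either, and CCT8 was lowest at 359 ± 5.77 TPM.

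In HCT116 parent cells with DMSO CCT3 stood at 1040 ± 14.2 TPM, CCT7 at 822 ± 1.38 TPM and CCT2 at 738 ± 24.6 TPM. TCP1 at 641 ± 14.4 TPM, CCT8 at 641 ± 19.4 TPM and CCT6A at 637 ± 15.3 TPM overlapped and cannot be ordered. CCT4 at 498 ± 5.55 TPM and CCT5 at 410 ± 2.64 TPM were the lowest. CCT8, the lowest subunit of A375, thus lay in the middle in HCT116, and CCT5, the lowest subunit of HCT116, lay in the middle in A375 (plot of the members' TPM by library).

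**Figure D1:**
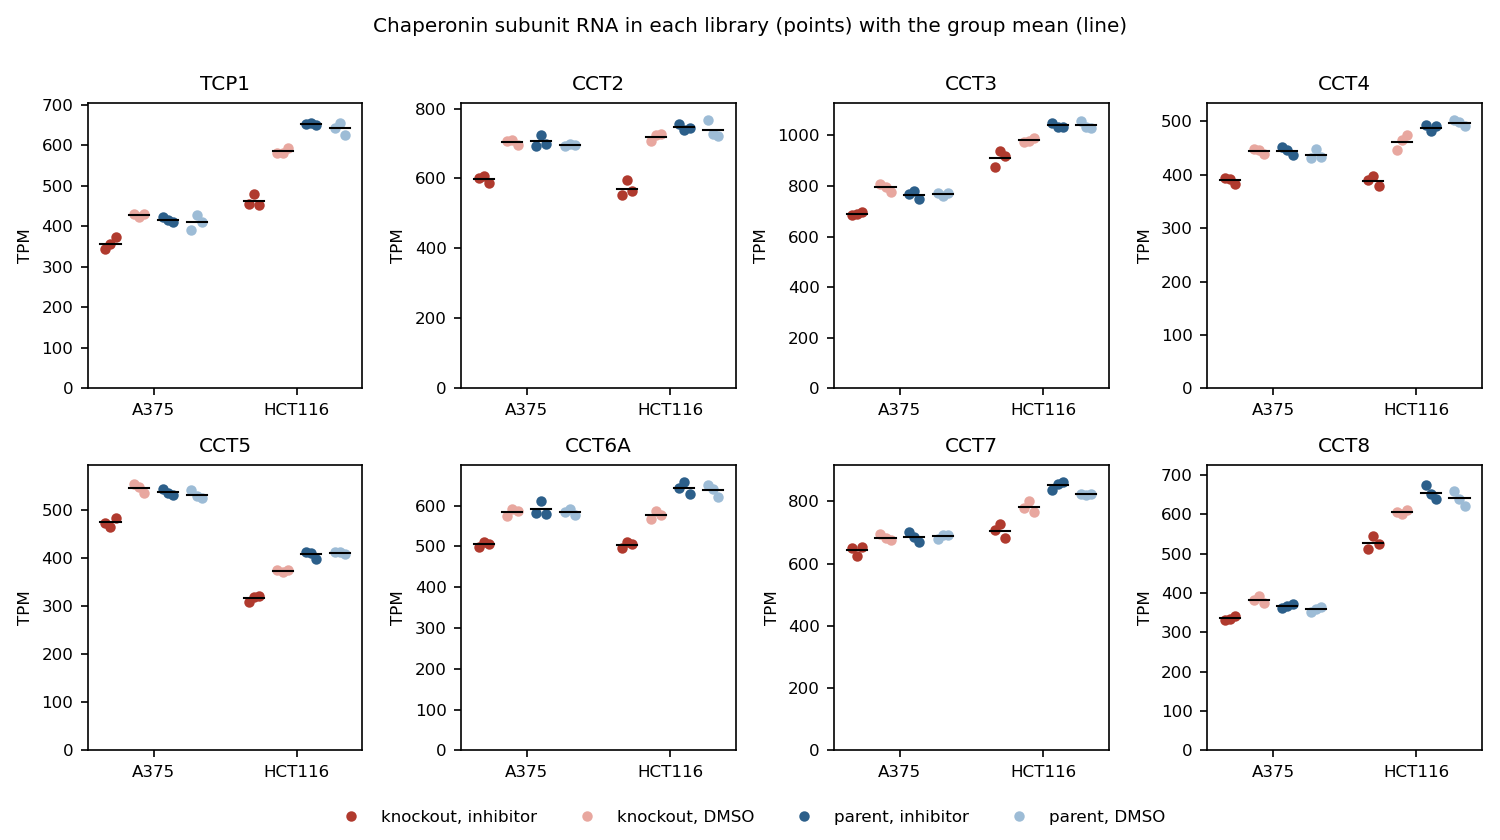
TPM (vertical axes, from 0) of each subunit in each of the 24 libraries, by line and group; points are libraries and lines are group means of 3. In both lines the 3 knockout libraries with inhibitor are the lowest of the line for all 8 subunits.

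The inhibitor was first compared with DMSO in the knockout clones, where both synthases are affected. All 8 subunits fell in both lines, whereas of all genes tested 18.8% fell in the A375 knockout and 20.1% in the HCT116 knockout. The change in mean TPM ran from -5.9% (CCT7) to -16.5% (TCP1) in A375 and from -7.1% (CCT3) to -20.9% (TCP1) in HCT116. The summed level was 3993 ± 26.5 TPM with inhibitor against 4567 ± 46.9 TPM with DMSO in the A375 knockout (-12.6%; SD, n = 3 each). In the HCT116 knockout the sum was 4387 ± 113 TPM with inhibitor and 5084 ± 44.4 TPM with DMSO (-13.7%). For every subunit in both lines the 3 libraries with inhibitor lay below the 3 with DMSO, in TPM and in CPM, the counts scaled to library size with TMM factors. Of all genes tested, 19.3% did so in TPM and 23.0% in CPM in A375, and 23.8% on either scale in HCT116. A fall is called below where edgeR's quasi-likelihood test on the expected counts gave an adjusted p under 0.05 over all genes of the line.

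TCP1 had the largest fall in both lines. In the A375 knockout it was at 343, 356 and 373 TPM with inhibitor and at 431, 422 and 430 TPM with DMSO. In the HCT116 knockout it was at 454, 480 and 454 TPM with inhibitor and at 580, 581 and 593 TPM with DMSO. The groups did not overlap in either line, although treated HCT116 cells still held more TCP1 RNA than A375 cells with DMSO. The log2 fold changes were -0.29 ± 0.031 (SE; edgeR adjusted p = 2.276e-11) in A375 and -0.34 ± 0.032 (edgeR adjusted p = 3.605e-14) in HCT116. The expected counts of TCP1 were not whole in any library, as RSEM gives where reads match more than 1 gene; TCP1 overlaps ACAT2, which had a median of 446 counts, and the part of such reads in the result was not tested.

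CCT2, the beta subunit, followed closely. It was at 600, 606 and 588 TPM with inhibitor and at 706, 711 and 696 TPM with DMSO in the A375 knockout, and at 552, 595 and 565 TPM with inhibitor and at 706, 725 and 727 TPM with DMSO in the HCT116 knockout. The DMSO levels of the clones were alike, and the treated libraries lay below them without overlap in both. The log2 fold changes were -0.27 ± 0.027 (edgeR adjusted p = 2.490e-12) in A375 and -0.33 ± 0.032 (edgeR adjusted p = 1.497e-13) in HCT116.

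CCT4 and CCT5, which can each assemble into rings of their own when made alone, fell by similar amounts. CCT4 was at 394, 393 and 383 TPM with inhibitor and at 448, 447 and 440 TPM with DMSO in the A375 knockout, and at 390, 398 and 380 TPM with inhibitor and at 446, 465 and 475 TPM with DMSO in the HCT116 knockout. CCT5 was at 473, 465 and 483 TPM with inhibitor and at 552, 548 and 535 TPM with DMSO in the A375 knockout, and at 309, 318 and 321 TPM with inhibitor and at 374, 369 and 375.2 TPM with DMSO in the HCT116 knockout. The groups of both genes stood apart in both lines, although CCT5 started from different levels in them. CCT4 changed by -0.22 ± 0.028 on the log2 scale in A375 and by -0.25 ± 0.033 in HCT116 (edgeR adjusted p = 2.711e-09 and 4.864e-09). CCT5 changed by -0.23 ± 0.025 in A375 and by -0.24 ± 0.031 in HCT116 (edgeR adjusted p = 1.547e-11 and 2.147e-09).

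CCT3 was the single subunit called for a difference between the 2 clones in the inhibitor effect. Of all genes tested, 19.7% were called in either direction for this difference, and the call of CCT3 was lost in 5 of 22 alternatives. In the A375 knockout CCT3 was at 683, 690 and 698 TPM with inhibitor and at 809, 797 and 776 TPM with DMSO. In the HCT116 knockout it was at 874, 940 and 917 TPM with inhibitor and at 975, 976 and 989 TPM with DMSO. The gap between groups was wide in A375 and narrow in HCT116, where treated replicate 2 came close to the DMSO libraries. The log2 fold changes were -0.23 ± 0.026 (edgeR adjusted p = 7.306e-11) in A375 and -0.11 ± 0.030 (edgeR adjusted p = 0.003465) in HCT116.

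CCT7 fell least in A375 and, after CCT3, least in HCT116. It was at 651, 625 and 652 TPM with inhibitor and at 694, 681 and 674 TPM with DMSO in the A375 knockout, and at 707, 728 and 684 TPM with inhibitor and at 779, 800 and 767 TPM with DMSO in the HCT116 knockout. These groups did not overlap but lay closer together than those of most other subunits. The log2 fold changes were -0.13 ± 0.027 (edgeR adjusted p = 0.0001161) in A375 and -0.15 ± 0.032 (edgeR adjusted p = 0.0001333) in HCT116.

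CCT6A and CCT8 were intermediate. CCT6A was at 500 to 511 TPM with inhibitor and at 574 to 592 TPM with DMSO in the A375 knockout, and at 497 to 511 TPM with inhibitor and at 568 to 587 TPM with DMSO in the HCT116 knockout. CCT8 was at 332 to 342 TPM with inhibitor and at 375.3 to 392 TPM with DMSO in the A375 knockout, and at 513 to 545 TPM with inhibitor and at 601 to 610 TPM with DMSO in the HCT116 knockout. CCT6A levels were thus nearly the same in both clones under either condition, whereas CCT8 levels were far apart. The log2 fold changes of CCT6A were -0.24 ± 0.027 in A375 and -0.19 ± 0.032 in HCT116, and those of CCT8 -0.22 ± 0.030 in A375 and -0.20 ± 0.032 in HCT116 (largest edgeR adjusted p of the 4, 9.056e-07). The expected counts of CCT6A were not whole in any library either, and its pseudogenes CCT6P1 and CCT6P3 had medians of 71.2 and 47.4 counts.

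The shares above are of 13455 genes tested in the A375 knockout and 13164 in the HCT116 knockout. The members' median log2 fold change was -0.23 in A375 and -0.22 in HCT116, and that of all genes tested was 0.006 and 0.002. By the ring sides known from yeast, TCP1, CCT2, CCT4 and CCT5 had the 4 largest falls in HCT116 and ranked 1, 2, 6 and 4 in A375, an arrangement noticed after the values were seen and not tested. No fall lost its call under any of the 17 alternative settings run in each line, leaving out each of the 6 libraries in turn included. In bulk RNA, fewer cells that express a gene and less RNA of it per cell cannot be told apart. Library totals were 9413904, 10346870 and 11688267 counts with inhibitor and 9950536, 8123567 and 9835631 counts with DMSO in the A375 knockout. In the HCT116 knockout they were 7910753, 6540588 and 6211629 counts with inhibitor and 9108761, 8829345 and 9053919 counts with DMSO. Totals with inhibitor overlapped those with DMSO in A375 and lay below them in HCT116; the part of depth in the falls was not tested beyond the scaling alternatives.

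**Figure D2:**
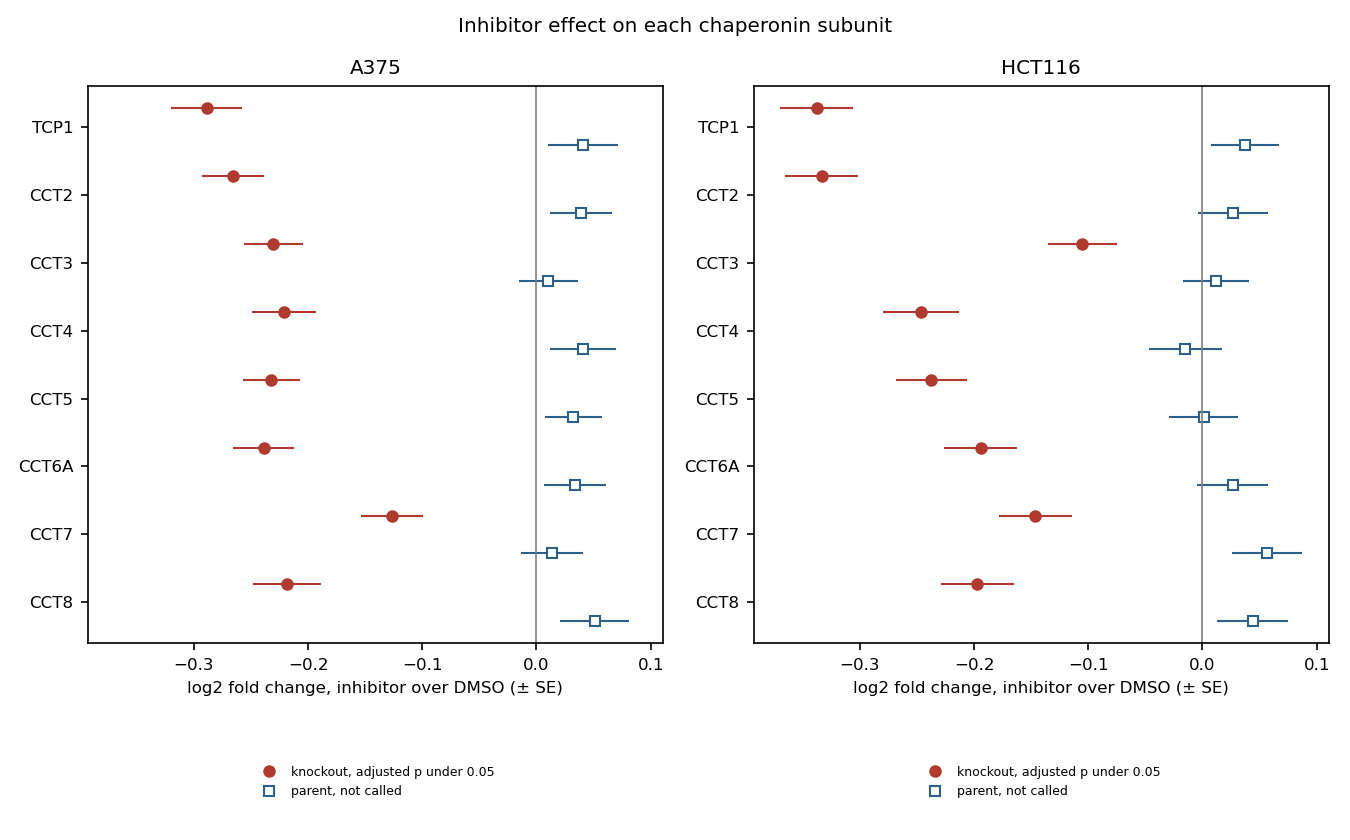
Log2 fold change with inhibitor over DMSO (horizontal axes) of each subunit in A375 and HCT116, with bars of 1 SE; filled circles are the knockout clones and open squares the parent lines. All 8 knockout values lie between -0.34 and -0.11, and the parent values between -0.02 and 0.06.

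In the parent lines, which keep PTDSS2, the inhibitor left the subunits near their DMSO levels. In A375 parent cells the summed level was 4513 ± 61.1 TPM with inhibitor and 4475 ± 30.9 TPM with DMSO. In HCT116 parent cells it was 5483 ± 37.8 TPM with inhibitor and 5429 ± 86.5 TPM with DMSO (SD, n = 3 each). TCP1, the strongest responder in the clones, was at 422, 416 and 411 TPM with inhibitor and at 391, 429 and 410 TPM with DMSO in A375 parent cells. In HCT116 parent cells it was at 652, 656 and 649 TPM with inhibitor and at 643, 655 and 626 TPM with DMSO. Treated and untreated libraries of TCP1 overlapped in both lines. In TPM 1 of the 16 pairs of groups did not overlap, that of CCT7 in HCT116, at 838, 857 and 861 TPM with inhibitor and at 824, 821 and 823 TPM with DMSO, and its log2 fold change of 0.06 ± 0.031 was not called (edgeR adjusted p = 0.9994). In CPM CCT7 in HCT116 and CCT2 and CCT8 in A375 lay above DMSO in all 3 libraries with inhibitor. The share of all genes tested that lay above was 4.24% in TPM and 6.50% in CPM in A375, and 3.51% in TPM and 4.75% in CPM in HCT116.

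Of the 8 members, 0 were called in either parent line by edgeR, DESeq2 or limma-voom, and 0 had an unadjusted p under 0.05 in edgeR. Over all genes tested edgeR called 0.104% in A375 and 0% in HCT116, where 530 genes had an unadjusted p under 0.05 and DESeq2 called 1 gene and limma-voom 0. The members' log2 fold changes ran from 0.01 (CCT3) to 0.05 (CCT8) in A375 and from -0.02 (CCT4) to 0.06 (CCT7) in HCT116. Their 95% intervals reached no lower than -0.04 (CCT3) in A375 and -0.08 (CCT4) in HCT116, so a fall of the median size seen in the clones lay outside every one of them.

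The inhibitor effect in the clone minus that in its parent tests whether the response differed between them. With 1 clone per line, the loss of PTDSS2 and other features of the clone cannot be told apart in it. All 8 subunits had a lower effect in the clone in both lines, against 14.0% of all genes tested in A375 and 13.8% in HCT116. In A375 the differences of log2 fold changes ran from -0.33 ± 0.044 for TCP1 to -0.14 ± 0.038 for CCT7 (edgeR adjusted p = 2.227e-08 and 0.003619), with a median of -0.27. In HCT116 they ran from -0.38 ± 0.044 for TCP1 to -0.12 ± 0.042 for CCT3 (edgeR adjusted p = 2.066e-10 and 0.02991), with a median of -0.24. CCT2 stood next to TCP1 in both, at -0.30 ± 0.039 and -0.36 ± 0.045 (edgeR adjusted p = 3.417e-09 and 1.760e-09). The call of CCT3 in HCT116 was lost in 7 of 22 alternatives, with adjusted p up to 0.1022, and that of CCT7 in A375 in both fits on TPM. Those fits also moved the balance of all A375 calls, of which higher ones made up 60.6% and 60.4% in place of 48.7%.

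The clones were then set against each other. The inhibitor effect in the A375 knockout minus that in the HCT116 knockout was called for CCT3, at -0.12 ± 0.040 (95% interval -0.20 to -0.04; edgeR adjusted p = 0.02362), and not for the other 7. Of all 14637 genes tested, 8.75% were called lower, 10.9% higher and 19.7% in either direction. The call of CCT3 was lost in 5 of 22 alternatives, with no filter and without HCT116 knockout DMSO replicate 1, HCT116 knockout inhibitor replicate 2, A375 knockout DMSO replicate 1 or A375 knockout inhibitor replicate 1, where the adjusted p reached 0.1155. For the remaining subunits the 95% intervals lay between -0.13 (CCT6A) and 0.16 (CCT2), which leaves room for differences of that size between the clones.

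The balance among the subunits was described by each subunit's share of the summed TPM of the 8. In the A375 knockout the share of CCT7 was 16.1% ± 0.348 with inhibitor against 15.0% ± 0.133 with DMSO, and that of CCT2 15.0% ± 0.333 against 15.4% ± 0.067 (SD, n = 3 each). The 3 libraries with inhibitor lay above those with DMSO for CCT7 and below them for CCT2, and the other 6 shares overlapped. In the HCT116 knockout CCT3 held 20.8% ± 0.371 with inhibitor against 19.3% ± 0.141 with DMSO, and CCT7 16.1% ± 0.374 against 15.4% ± 0.346. TCP1 held 10.5% ± 0.104 with inhibitor against 11.5% ± 0.107 with DMSO, and CCT2 13.0% ± 0.165 against 14.2% ± 0.102. The shares of CCT3 and CCT7 lay above and those of TCP1 and CCT2 below their DMSO values in all 3 libraries. The shares of the other 4 overlapped. Such gaps were also seen outside the treated clones. With DMSO, 1 share lay above and 3 below the parent in the HCT116 clone, and 1 above and 1 below in the A375 clone. In parent cells with inhibitor 2 shares lay below DMSO in HCT116, and all 8 overlapped in A375. Shares sum to 100, so a higher share of some goes with a lower share of others, and no test was made on them.

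**Figure D3:**
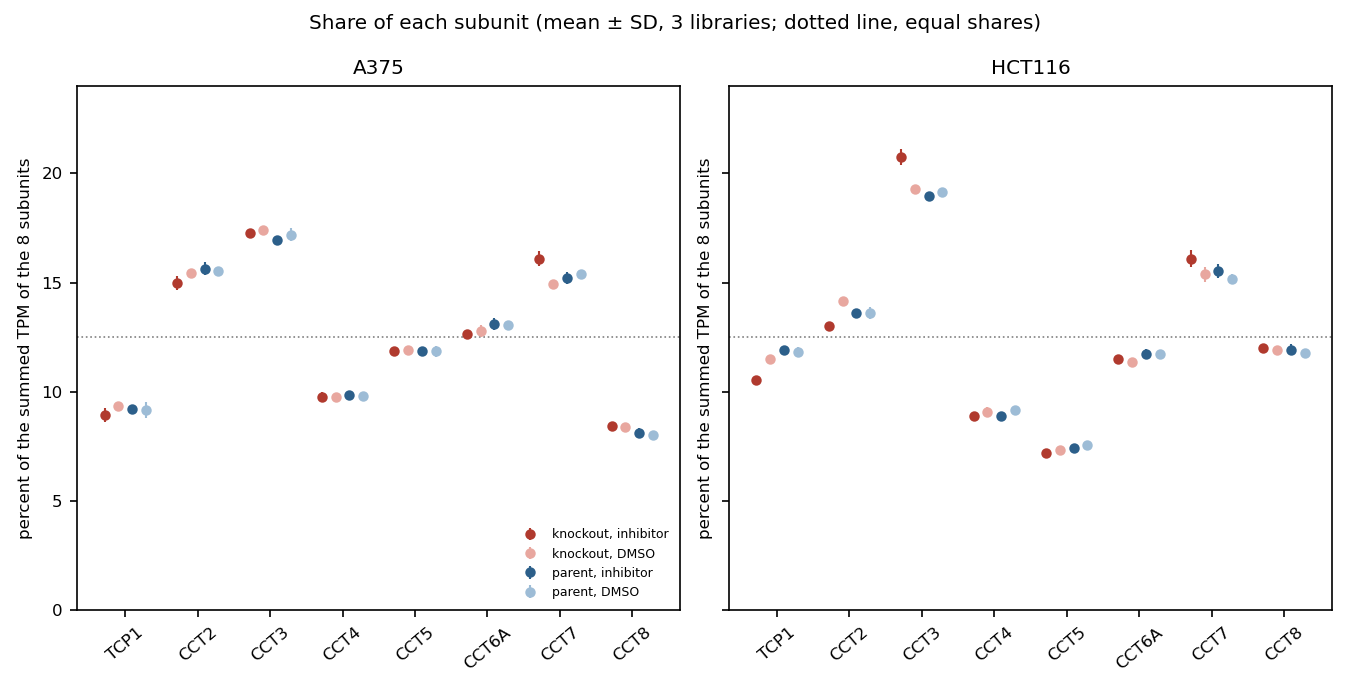
Share of each subunit in the summed TPM of the 8 (vertical axes, percent) in the 4 groups of A375 and of HCT116; points are means and bars SD of 3 libraries, and the dotted line is an equal share. CCT7 stands at 16.1% with inhibitor in both clones, and the lines differ most in CCT5 and CCT8.

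Without inhibitor the clones differed from their parents in opposite directions. In A375 4 subunits were higher in the knockout than in the parent and 0 lower, against 9.54% of all genes tested called higher. They were CCT8 at 0.13 ± 0.030, TCP1 at 0.10 ± 0.031, CCT3 at 0.08 ± 0.026 and CCT5 at 0.08 ± 0.025 on the log2 scale (largest edgeR adjusted p, 0.02687). CCT8 was at 382, 392 and 375.3 TPM in knockout cells and at 353, 359 and 364 TPM in parent cells, and CCT3 at 809, 797 and 776 TPM in knockout cells and at 774, 760 and 773 TPM in parent cells. In TPM these 2 of the 8 subunits lay above the parent in all libraries, against 11.4% of all genes tested. In CPM 6 did (all but CCT6A and CCT7), against 17.3%. The calls of TCP1, CCT3 and CCT5 were lost with library size alone and on TPM, where among all calls of the comparison the higher ones made up 38.3% and 38.4% in place of 58.5%. The fit without A375 knockout DMSO replicate 1 called 1 member, those without knockout DMSO replicate 2 or parent DMSO replicate 1, 2 or 3 called 2, and that without knockout DMSO replicate 3 called 3. Of the 17 alternatives, TCP1 lost its call in 8, CCT3 in 8 and CCT5 in 11, while CCT8 was called in all.

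In HCT116 4 subunits were lower in the knockout clone than in its parent and 0 higher, against 10.8% of all genes tested called lower. They were CCT6A at -0.12 ± 0.031, CCT5 at -0.12 ± 0.030, TCP1 at -0.11 ± 0.030 and CCT4 at -0.09 ± 0.032 on the log2 scale (largest edgeR adjusted p, 0.0392). CCT5 was at 374, 369 and 375.2 TPM in knockout cells and at 412, 412 and 407 TPM in parent cells, and CCT6A at 568, 587 and 578 TPM in knockout cells and at 650, 642 and 620 TPM in parent cells. Neither gene overlapped between the groups. In TPM 7 of the 8 subunits (all but CCT2) lay below the parent in all libraries, against 20.4% of all genes tested, and in CPM 5 did (TCP1, CCT3, CCT4, CCT5 and CCT6A), against 17.3%. CCT4 lost its call in 5 of 17 alternatives and TCP1 in the fit without parent DMSO replicate 2, which called 2 members.

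The clone difference in A375 minus that in HCT116 was tested over all 24 libraries. It was higher for 6 subunits, against 9.44% of the 14637 genes tested, from TCP1 at 0.21 ± 0.045 to CCT4 and CCT3 at 0.14 ± 0.044 and 0.14 ± 0.040 (largest edgeR adjusted p, 0.01428). CCT2 and CCT7 had values of 0.06 ± 0.043 and 0.06 ± 0.042 and were not called. CCT4 lost its call without HCT116 knockout DMSO replicate 1 and without A375 parent DMSO replicate 1. With library size alone the same 6 were called, while the share of higher calls over all genes was 42.6% in place of 53.4%.

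Among the 11 comparisons, that of the parent lines with DMSO gave the largest differences of subunit RNA. CCT8 was at 353, 359 and 364 TPM in A375 and at 660, 640 and 621 TPM in HCT116, a log2 fold change of -0.78 ± 0.032 (edgeR adjusted p = 6.117e-42). TCP1 was at 391, 429 and 410 TPM in A375 and at 643, 655 and 626 TPM in HCT116, a log2 fold change of -0.59 ± 0.032 (edgeR adjusted p = 1.321e-32). CCT5 went the other way, at 540, 527 and 525 TPM in A375 and at 412, 412 and 407 TPM in HCT116, a log2 fold change of 0.42 ± 0.028 (edgeR adjusted p = 2.989e-26). No library of one line reached the range of the other for these 3 genes, but 81.8% of all genes tested were called in either direction. The share of all genes whose libraries stood apart in this way was not counted.

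CCT3 at -0.38 ± 0.028, CCT7 at -0.20 ± 0.030, CCT4 at -0.13 ± 0.031 and CCT6A at -0.07 ± 0.030 were also lower in A375 (largest edgeR adjusted p, 0.02225), and CCT2 at -0.03 ± 0.030 was not called. In all, 6 members were lower and 1 higher, but 39.6% of all genes tested were called lower and 42.2% higher, so most genes differed between the lines. CCT6A was not called in 4 of the 6 fits without a library, and CCT2 was called lower with library size alone and on TPM. As a share of the 8, CCT5 made up 11.9% ± 0.255 in A375 and 7.56% ± 0.082 in HCT116, and CCT8 8.02% ± 0.115 in A375 and 11.8% ± 0.170 in HCT116 (SD, n = 3 each).

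**Figure D4:**
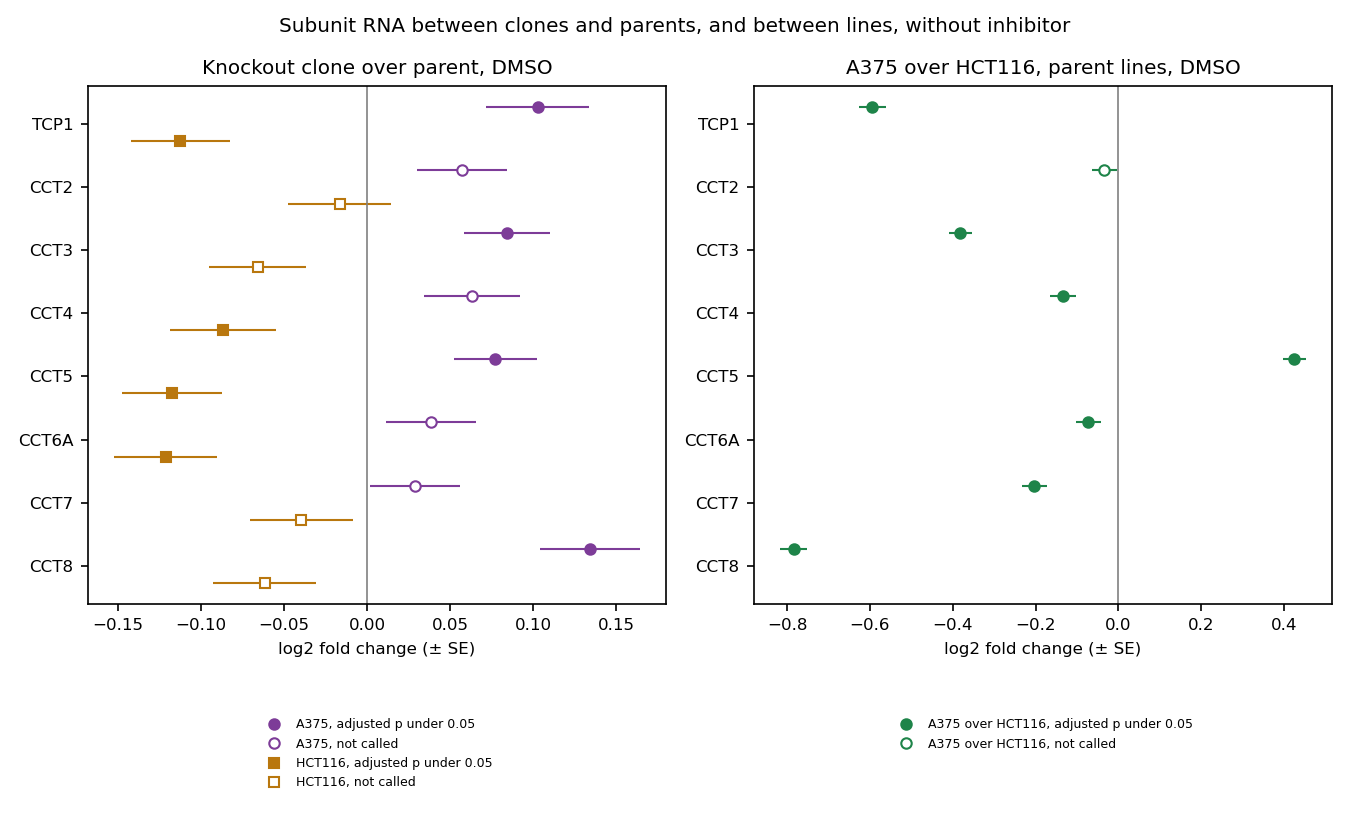
Log2 fold changes (horizontal axes, bars of 1 SE) with DMSO. Left, knockout clone over parent, circles for A375 and squares for HCT116; right, A375 over HCT116 parent lines; filled marks have an adjusted p under 0.05. The A375 clone lies right of 0 and the HCT116 clone left of 0 for all 8 subunits, and CCT5 is the single subunit higher in A375 parent cells.

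The subunits varied together across libraries. After centring on the mean of each line, the log2 CPM of each subunit correlated with the mean of the other 7 at r = 0.934 (CCT7) to 0.979 (TCP1 and CCT5) over the 24 libraries. These libraries share their treatment groups and, within a line, the contrast between treated clones and the rest, so the coefficients are descriptions of that pattern. Among 9934 other genes searched, those most like the mean of the 8 were NCL at r = 0.993, which encodes the nucleolar protein nucleolin, PAICS at 0.989, an enzyme of purine synthesis, and HSPA8 at 0.979, the constitutive cytosolic HSP70. PCNA, the sliding clamp of DNA replication, and PPP1CC, a catalytic subunit of protein phosphatase 1, followed at 0.978 each. On log2 TPM these 5 ranked 1, 2, 3, 6 and 5.

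The rest of the cytosolic folding pathway was read from lists of its parts. The cytosolic HSP70 and HSP90 chaperones and their partners, which hold and pass on unfolded proteins, fell in 10 of 10 genes in the A375 knockout and in 8 of 10 in the HCT116 knockout with inhibitor, with 0 higher in either. Their median log2 fold changes were -0.26 and -0.34. Of all genes tested, 18.7% were called higher in the A375 knockout and 17.1% in the HCT116 knockout, beside the shares called lower given above. HSPA8 changed by -0.58 ± 0.022 in A375 and by -0.68 ± 0.029 in HCT116 (edgeR adjusted p = 1.508e-30 and 1.346e-30). HSPH1, an HSP110 nucleotide exchange factor, changed by -0.28 ± 0.026 and -0.60 ± 0.036, and DNAJA1, an HSP40 partner of HSP70, by -0.41 ± 0.029 and -0.57 ± 0.036 (largest edgeR adjusted p, 1.229e-13). HSF1, the main transcription factor of the heat shock response, fell by 0.14 in both clones (SE 0.050 in A375 and 0.053 in HCT116; edgeR adjusted p = 0.02254 and 0.02763), and its relative HSF2 was not called.

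Prefoldin, the complex that delivers unfolded actin and tubulin to TRiC, did not move as 1 group. Of its 6 genes 2 fell and 1 rose in the A375 knockout, and 3 fell and 1 rose in the HCT116 knockout. PFDN1 changed by -0.33 ± 0.052 in A375 and -0.27 ± 0.064 in HCT116 (edgeR adjusted p = 2.914e-07 and 0.0005410), whereas PFDN5 changed by 0.12 ± 0.042 and 0.32 ± 0.045 (edgeR adjusted p = 0.01972 and 2.940e-08). PFDN4 fell in HCT116, at -0.31 ± 0.066 (edgeR adjusted p = 8.884e-05), and was at -0.09 ± 0.051 in A375, not called. The phosducin-like cofactors of TRiC (PDCL, PDCL3 and TXNDC9) had 0 calls of 3 in either clone, and 0 of them had an unadjusted p under 0.05 in edgeR. Their estimates were less precise than those of the subunits in HCT116. There the 95% intervals of PDCL (-0.19 to 0.12) and TXNDC9 (-0.17 to 0.26) included a fall the size of that of CCT7. That of PDCL3 (-0.01 to 0.33) did not.

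Of the other chaperonins, HSPD1 and HSPE1, the mitochondrial chaperonin and its lid, fell in both clones. HSPD1 changed by -0.28 ± 0.026 in A375 and -0.24 ± 0.030 in HCT116, and HSPE1 by -0.31 ± 0.034 and -0.25 ± 0.033 (largest edgeR adjusted p, 6.166e-09). BBS10, a chaperonin-like protein of the primary cilium, rose in HCT116 at 0.32 ± 0.100 (edgeR adjusted p = 0.007699) and was at 0.22 ± 0.094 in A375, not called. CCT6B, the testis form of the zeta subunit, had at most 6 counts and was not tested.

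Among the clients, actins and tubulins fell in 9 of 13 genes tested in the A375 knockout and in 9 of 14 in the HCT116 knockout, with medians of -0.21 in both, close to those of the subunits. ACTG1 changed by -0.70 ± 0.025 in A375 and -0.30 ± 0.030 in HCT116, and ACTB by -0.51 ± 0.024 and -0.24 ± 0.030 (largest edgeR adjusted p, 1.441e-09). TUBA1A was the single rise in both, at 0.64 ± 0.069 and 1.28 ± 0.081 (edgeR adjusted p = 1.062e-11 and 6.585e-22). Actin and tubulin paralogs are near-identical in sequence, so the split of reads between them is uncertain. Of 12 other known clients 4 fell and 2 rose in A375, and 5 fell and 2 rose in HCT116. CDC20, an activator of the anaphase-promoting complex, changed by -0.64 ± 0.033 and -0.24 ± 0.034, and the mitotic kinase PLK1 by -0.40 ± 0.034 and -0.21 ± 0.038 (largest edgeR adjusted p, 5.270e-06). The tumour suppressor VHL rose by 0.29 ± 0.048 and 0.14 ± 0.049, and STAT3 by 0.22 ± 0.043 and 0.18 ± 0.052 (largest edgeR adjusted p, 0.02321). CCNE1, cyclin E1, fell in HCT116 at -0.59 ± 0.074 (edgeR adjusted p = 6.541e-10) and was at -0.11 ± 0.098 in A375, not called.

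The tubulin folding cofactors, which take tubulin over after TRiC, had 2 falls and 0 rises of 6 genes in the A375 knockout, and 2 falls and 2 rises in the HCT116 knockout. TBCB rose in HCT116 at 0.32 ± 0.059 (edgeR adjusted p = 8.405e-06) and was at -0.10 ± 0.047 in A375, not called. TBCD fell in HCT116 at -0.18 ± 0.040 (edgeR adjusted p = 0.0001613), and TBCC fell in A375 at -0.27 ± 0.091 (edgeR adjusted p = 0.01637). Across these lists, the TRiC subunits in both clones and the HSP70 and HSP90 group in the A375 clone had every gene tested called lower. In the HCT116 clone all 10 HSP70 and HSP90 genes also had negative log2 fold changes, and 8 were called. Their median there was -0.34, against -0.22 for the subunits. The 2 heat shock transcription factors were negative in both clones, with 1 called in each.

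**Figure D5:**
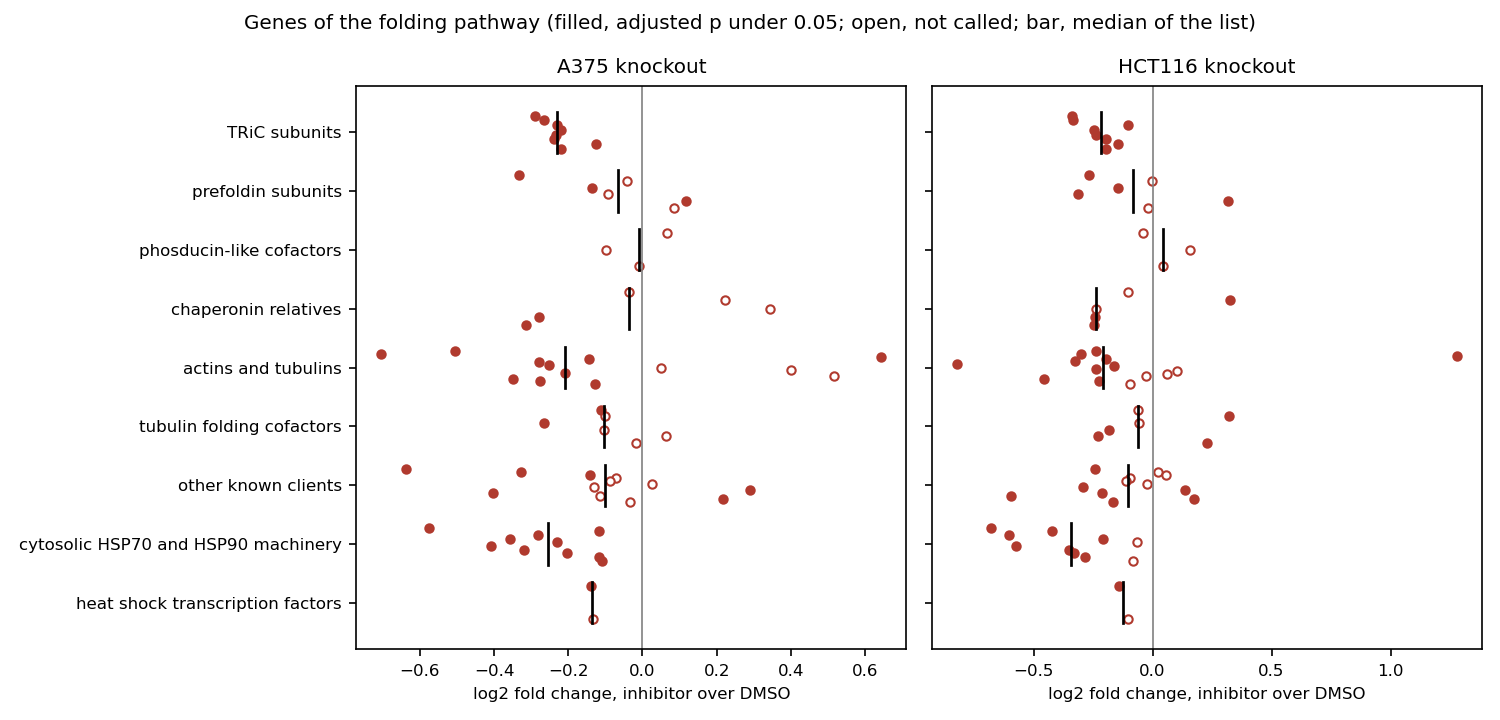
Log2 fold change with inhibitor over DMSO (horizontal axes) of the genes of 9 lists in the A375 and HCT116 knockout clones; filled points have an adjusted p under 0.05, open points do not, and vertical bars are list medians. All TRiC points are filled and left of 0, at medians of -0.23 and -0.22, while the prefoldin, client and cofactor lists spread to both sides.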

How the data were processed

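Poly(A) RNA was sequenced from 24 libraries, 3 in each of 8 groups, per the labels' protocols, and samples were grouped by the titles and characteristics in the labels. The submitters' processing notes name STAR 2.4.2a, RSEM 1.2.23 and the build hg19. Annotation release, strand setting and any filter were not given in the sources used here. Without a stated strand setting, reads of overlapping genes cannot be assigned by strand. The deposited expected counts, per the file headers, are RSEM estimates per gene. The deposited TPM and FPKM columns are RSEM's values scaled for transcript length and library size, per the file headers. FPKM served only to check the shares. A RefSeq table of GRCh38.p14 gave symbols for 25220 of the 25343 gene identifiers. Promoter sequences come from RefSeq on that build, and no coordinates of the files' own build are given.

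Expected counts were rounded, scaled with TMM factors and filtered with edgeR's default (minimum count 10, minimum total 15). edgeR 4.0.16 in R 4.3.3 fitted each line over its 12 libraries with a mean per group, and all 24 libraries for comparisons between lines. The robust quasi-likelihood F test was two-sided, with Benjamini-Hochberg adjustment over all genes tested, and adjusted p under 0.05 is called. The SE of a log2 fold change was taken as its absolute value over the square root of F. The pairs of libraries within groups differed by more than counting noise, so none was taken for a duplicate.

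The members, lists and rules were chosen with earlier results of these data known. Named were all members and PTDSS2; of each list, up to 3 genes with the smallest adjusted p in either clone and any going against most of its list; and the 5 genes, with mean CPM of at least 8, most correlated with the members. The test code was tested on simulated data. Alternatives were limma (3.58.1) on log2(TPM + 1) and on log2(TPM + 0.1), limma-voom, DESeq2 1.42.0, median-ratio scaling, scaling to library size alone, filtering at a mean of 5 CPM or not at all, fits over more or fewer libraries, the replicate number as a block, and leaving out each library in turn. The replicate numbers were checked for pairing within each line. Same-numbered libraries correlated at -0.033 to 0.092 in their deviations from the group means. Correlations this small cannot decide whether the numbers pair the samples, and the main fits took the samples as unpaired.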

Additional observations from a re-analysis of the deposited data

Results flagged for a closer look

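The values below stand out because an effect differed between 2 groups by the test of the difference itself (edgeR's quasi-likelihood test, adjusted p under 0.05). Each is a difference of log2 fold changes. No group held more than 3 libraries, so single libraries were not screened for standing apart.

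The inhibitor effect of all 8 subunits was lower in the clone than in its parent. Of all genes tested, 14.0% were called lower in A375 and 13.8% in HCT116. In A375 the differences were -0.33 for TCP1, -0.30 for CCT2, -0.24 for CCT3, -0.26 for CCT4, -0.26 for CCT5, -0.27 for CCT6A, -0.14 for CCT7 and -0.27 for CCT8. In HCT116 they were -0.38 for TCP1, -0.36 for CCT2, -0.12 for CCT3, -0.23 for CCT4, -0.24 for CCT5, -0.22 for CCT6A, -0.20 for CCT7 and -0.24 for CCT8. The call of CCT3 in HCT116 was lost in 7 of 22 alternatives, and that of CCT7 in A375 in both fits on TPM. CCT3 was also the 1 subunit of 8 called for a difference between the clones, at -0.12 for the A375 knockout minus the HCT116 knockout. That call was lost in 5 of 22 alternatives, and 19.7% of all genes tested were called in either direction.

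The difference between clone and parent with DMSO, in A375 minus HCT116, was 0.21 for TCP1, 0.14 for CCT3, 0.14 for CCT4, 0.19 for CCT5, 0.15 for CCT6A and 0.19 for CCT8. Each line has 1 clone, so the line and the clone cannot be told apart in these values. Of all genes tested, 9.44% were called higher for this difference, and CCT4 lost its call in 2 of 22 alternatives.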

How the results depend on the processing

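The 8 falls in each treated clone kept their direction and call in all alternatives run, and 0 members were called in either parent line under any. Of the 4 members called in the A375 clone against its parent, 1 was called with library size alone and in both fits on TPM, 2 with all 24 libraries in the fit, and 1 to 3 with a library left out. There CCT5 also lost its call with median-ratio scaling, no filter and the filter at a mean of 5 CPM, and TCP1 with DESeq2. The 4 members called in the HCT116 clone became 2 to 5 with a library left out, the lowest without parent DMSO replicate 2. The 1 member (CCT3) that differed between treated clones became 0 with no filter and 0 to 1 with a library left out. Changes of sign were seen in values near 0 that were not called. For HCT116 parent cells with inhibitor they were CCT3 at -0.001 on TPM (both pseudocounts) and -0.003 to 0.026 without a library, CCT6A at 0.000 to 0.048 without a library, and CCT5 at -0.007 with library size alone, -0.001 with no filter, -0.012 on TPM and -0.012 to 0.021 without a library. For A375 parent cells they were CCT3 at -0.002 with library size alone, -0.007 on TPM and -0.006 to 0.028 without a library, and CCT7 at -0.004 on TPM and -0.009 to 0.032 without a library. For clone against parent they were CCT6A at -0.002 on TPM and CCT7 at -0.009 with library size alone and -0.010 on TPM in A375, and CCT2 at -0.041 to 0.013 without a library in HCT116. For the inhibitor effect in A375 minus HCT116 knockouts they were CCT5 at -0.014 with the filter at a mean of 5 CPM and 0.000 with only the libraries compared, CCT7 at -0.007 to 0.049 without a library, and CCT8 at 0.009 and 0.008 on TPM and -0.028 to 0.008 without a library. The cause was not tested. Over all genes, DESeq2 called 1371 for the A375 clone against its parent in place of 2196, and 1798 for the HCT116 clone in place of 2804. In A375 parent cells 6 genes were called on TPM and 9 without parent DMSO replicate 3, in place of 14. In HCT116 parent cells 4 were called with no filter or with only the libraries compared, 1 with DESeq2, the replicate block or without inhibitor replicate 1, and 2 without inhibitor replicate 3, in place of 0. The main fits did not pair the samples by replicate number. With the replicate number as a block the counts of called members were unchanged: 8 in each treated clone, 0 in each parent line, 8 for each clone minus parent effect, 4 for each clone against its parent, 1 between treated clones, 6 for the clone difference between lines and 7 between parent lines. In the HCT116 clone comparison 6 of 6 libraries correlated best with their own number, a hint from the data and not the design. The SE of a subunit's log2 fold change in a treated clone was 0.025 to 0.033, which limits the small changes that can be called. The part of depth in that SE was not tested.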
